A study of Mus musculus with 3 samples.

Results

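The genes described here were 42 mouse genes of glycolysis, the pentose phosphate pathway and the entry of pyruvate into mitochondria, out of 55536 annotated genes in the deposited gene tables. They were taken from a list of symbols, matched to gene identifiers of GENCODE M21 on the mm10 build, and each symbol had a row in every library. The list was made for its isoenzymes, which are proteins of different genes that carry out the same reaction. The samples were 3 libraries of polyadenylated RNA from activated regulatory T (Treg) cells, a CD4 lineage that dampens immune responses and depends on the transcription factor Foxp3. Per the labels, they were technical replicates 1, 2 and 3 of 1 biosample from a male mouse aged 9 weeks, taken as primary cells from the whole organism. The labels used here give neither strain nor genotype, nor the means of activation or sorting. There was no other group. Every SD below is therefore over 3 libraries of the same cells and measures technical spread, and the comparisons are between genes within these cells.

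Glycolysis splits glucose into pyruvate in the cytosol and yields ATP and NADH. Pyruvate is either reduced to lactate and exported, or carried into mitochondria and oxidised by the pyruvate dehydrogenase complex, which a family of kinases inhibits. The pentose phosphate pathway branches off after the first phosphorylation and makes NADPH and ribose phosphate for nucleotides. Activated conventional T cells are known for raising glycolysis and lactate production, whereas Treg cells are known for a larger reliance on mitochondrial oxidation, and Foxp3 is known to restrain glycolytic genes. Several of these steps are served by more than 1 isoenzyme, and the isoenzymes differ in how they are regulated.

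The best known choice lies within a single gene. Pkm encodes pyruvate kinase, the last enzyme of glycolysis, and its transcripts carry either the M1 or the M2 exon. The M2 protein is activated by the upstream metabolite fructose 1,6-bisphosphate, and the M1 protein is constitutively active. Both exons are shown because the pyruvate kinase result rests in part on telling them apart. They lie on the plus strand of mm10 chromosome 9, the M1 exon (exon 9 of Pkm) at chr9:59675029-59675195 and the M2 exon (exon 10) at chr9:59675568-59675734. Both were 167 bases long and entirely coding, and capitals mark the 64 positions at which they differed (61.7% identical).
Pkm M1 exon: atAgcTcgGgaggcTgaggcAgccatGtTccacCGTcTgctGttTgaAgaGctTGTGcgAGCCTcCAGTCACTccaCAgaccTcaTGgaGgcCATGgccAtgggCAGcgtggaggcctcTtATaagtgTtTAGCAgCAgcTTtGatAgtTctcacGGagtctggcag
Pkm M2 exon: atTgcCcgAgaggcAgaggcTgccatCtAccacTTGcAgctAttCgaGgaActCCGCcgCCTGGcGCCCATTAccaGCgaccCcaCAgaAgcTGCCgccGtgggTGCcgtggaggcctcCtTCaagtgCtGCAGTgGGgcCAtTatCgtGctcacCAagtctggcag

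Isoenzymes of different genes can be told apart only where their sequences differ within a read. In the coding sequences of the leading protein-coding transcripts, the closest windows of 50 bases differed at 3 positions in Hk2/Hk3 and in Pfkl/Pfkp, and at 11 positions in Slc16a1/Slc16a3. The other 19 of 22 pairs lay between these values, so no pair shared an identical coding window of that length. The closest windows of 3 pairs are shown from 5′ to 3′ with the differing bases in capitals, because the results on hexokinase, aldolase and lactate dehydrogenase turn on telling these genes apart. The windows lie on mm10 at chr10:62292404-62292453 for Hk1 and chr6:82739609-82739658 for Hk2 (minus strand both), and differed at 4 positions.
Hk1: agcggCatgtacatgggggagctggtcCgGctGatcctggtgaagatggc
Hk2: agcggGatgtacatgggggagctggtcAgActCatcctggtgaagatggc
The aldolase windows each span an exon junction, within chr7:126796298-126796641 for Aldoa (minus strand) and chr11:78325163-78325331 for Aldoc (plus strand), and also differed at 4 positions.
Aldoa: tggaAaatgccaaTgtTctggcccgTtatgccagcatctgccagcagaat
Aldoc: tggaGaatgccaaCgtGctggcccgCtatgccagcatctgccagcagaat
The lactate dehydrogenase windows, at chr7:46850249-46850298 for Ldha (plus strand) and chr6:142498558-142498607 for Ldhb (minus strand), differed at 6 positions.
Ldha: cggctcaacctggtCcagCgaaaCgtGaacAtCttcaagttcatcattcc
Ldhb: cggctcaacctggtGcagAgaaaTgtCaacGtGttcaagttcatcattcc

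The libraries held 31445344, 32612609 and 37259281 expected counts, which are estimated reads per gene, with reads that match several genes divided between them. The markers of the labelled cell type were high, with 4 of 4 T cell genes and 4 of 4 Treg genes detected and summed Treg levels of 1209.1 to 1266.9 TPM (a transcript's share of all transcripts on a fixed scale, corrected for length). Red cell globin genes summed to 364 to 515 TPM, 3 B cell genes to 34.2 to 48.0 TPM and 4 macrophage and monocyte genes, of which 3 were detected, to 38.6 to 43.1 TPM. None of 3 neutrophil genes was detected, with sums of 0.21 to 14.7 TPM, 3 CD8 and NK cell genes summed to 2.42 to 3.45 TPM, and the liver, skeletal muscle, neuron and stroma genes were below 1 TPM. In bulk RNA, few cells with a high level and many cells with a low level of a transcript cannot be told apart.

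Of the 42 genes, 39 were detected, meaning at least 1 TPM in all 3 libraries. Over all 22028 protein-coding genes the detected share was 47.3%. The 39 had a median level of 56.3 TPM, against 29.2 TPM over detected protein-coding genes, and 15 of them reached 100 TPM, a level that 17.3% of detected protein-coding genes reached. Together the 42 genes held 0.7001% ± 0.0138 of all protein-coding TPM. The payoff phase, the steps from glyceraldehyde 3-phosphate to pyruvate, held 37.2% ± 0.131 of their summed TPM and the lactate genes 21.8% ± 0.189. The preparatory phase held 18.7% ± 0.232, the non-oxidative branch of the pentose phosphate pathway 10.3% ± 0.137 and pyruvate entry 5.77% ± 0.262. The oxidative branch held 3.598% ± 0.0922, glucose uptake 2.32% ± 0.0859 and the genes that set fructose 2,6-bisphosphate 0.320% ± 0.0320. The median coefficient of variation over libraries was 7.73%, against 7.69% over detected protein-coding genes.

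**Figure D1:**
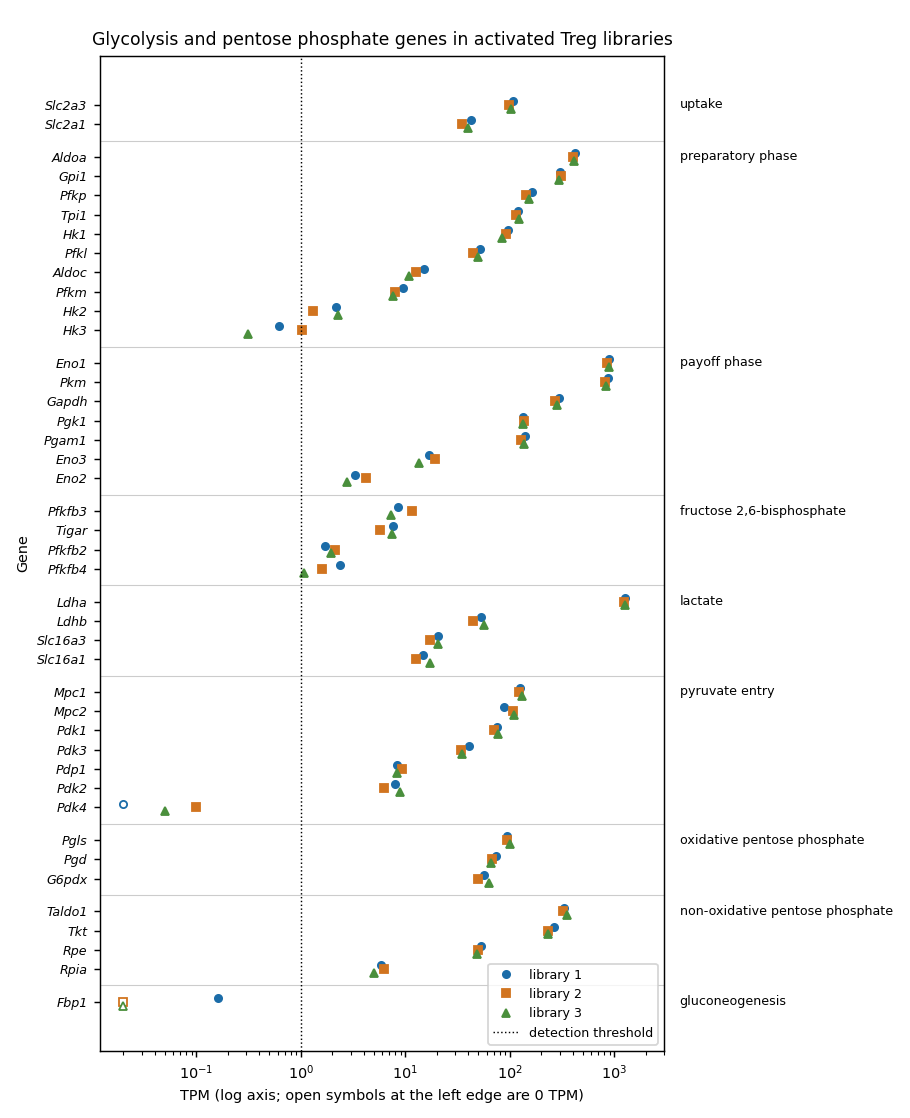
Levels of the 42 genes in TPM on a log axis, 1 point per library, grouped by role and ordered within a role by mean. Ldha stands at the top with 1232 to 1262 TPM, and Hk3, Pdk4 and Fbp1 are not at or above the dotted threshold of 1 TPM in all 3 libraries.

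Glucose enters T cells through facilitative transporters, of which GLUT1 (Slc2a1) and GLUT3 (Slc2a3) were on the list. Slc2a1 had 42.6, 34.8 and 39.7 TPM in libraries 1, 2 and 3, against 108, 98.7 and 103 TPM of Slc2a3. Slc2a3 was the higher in each library, the levels did not overlap, and it held 72.6% ± 1.17 of the pair. The log2 ratio of Slc2a1 to Slc2a3 was -1.41 ± 0.08, beyond 2 SD, which was the rule for calling a pair together with the same sign in all 3 libraries. With 3 libraries an exact sign-flip test cannot go below p = 0.25, so no p is given for any pair. The leading Slc2a1 transcript, Slc2a1-204, is annotated as a target of nonsense-mediated decay and held 62.1% ± 5.36 of the gene's TPM. All of its 2241 bases lie in exons of the gene's protein-coding transcripts, and it covers 88.6% of the coding positions. Whether reads were assigned to the right transcript was not tested. On protein-coding transcripts alone, Slc2a1 had 16.7, 14.8 and 12.7 TPM and the log2 ratio was -2.74.

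Hexokinase traps glucose as glucose 6-phosphate, and Hk1, a widely expressed form that binds mitochondria, accounted for nearly all of its RNA. Hk1 had 96.3, 91.8 and 84.5 TPM. Hk2, the inducible isoenzyme that activated T cells and tumours are known to raise, had 2.18, 1.32 and 2.29 TPM. Hk3, an isoenzyme of myeloid cells, had 0.62, 1.02 and 0.31 TPM and was not detected. Hk1 held 97.2% ± 0.255 of the step and exceeded Hk2 by a log2 ratio of 5.52 ± 0.45. The ratio of Hk2 to Hk3 was 1.52 ± 1.11 and was not called; without library 2, in which Hk3 was highest and Hk2 lowest, it was 2.10 and passed. The macrophage and neutrophil markers given above were present at low levels, and their part in the Hk3 reads was not tested.

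Gpi1, which encodes glucose 6-phosphate isomerase, had 299, 305 and 297 TPM. Phosphofructokinase 1, the committed step, was led by the platelet-type gene Pfkp with 162, 142 and 153 TPM. The liver-type gene Pfkl had 51.8, 44.4 and 49.4 TPM, and the muscle-type gene Pfkm 9.48, 8.02 and 7.53 TPM. The 3 genes did not overlap in any library, and Pfkp held 72.9% ± 0.271 of the step. The log2 ratio of Pfkl to Pfkp was -1.65 ± 0.02, the smallest SD of the 22 pairs, and that of Pfkm to Pfkp was -4.18 ± 0.13.

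Phosphofructokinase 1 is activated by fructose 2,6-bisphosphate, which the Pfkfb enzymes make and break down and which TIGAR degrades. These genes were among the lowest on the list. Pfkfb3, whose product has the strongest kinase activity of the family, had 8.50, 11.5 and 7.27 TPM and held 71.3% ± 4.02 of the step. Pfkfb2 had 1.71, 2.12 and 1.95 TPM, against 2.36, 1.58 and 1.06 TPM of Pfkfb4. Their order depended on the library: Pfkfb4 was the higher in library 1 and Pfkfb2 in libraries 2 and 3. The log2 ratio of Pfkfb2 to Pfkfb4 was 0.26 ± 0.64 and was not called; without library 1 it was 0.61 and passed, and without library 3 it was -0.02. Tigar had 7.68, 5.75 and 7.41 TPM.

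Aldolase splits fructose 1,6-bisphosphate, and the ubiquitous form Aldoa led it with 422, 404 and 412 TPM, against 15.2, 12.7 and 10.8 TPM of the brain-type Aldoc. The log2 ratio was 5.002 ± 0.225 and Aldoa held 97.0% ± 0.454 of the pair. Another locus beside it that carries the same symbol had 0.45, 0.28 and 0.19 TPM. Triose phosphate isomerase (Tpi1) had 121, 115 and 123 TPM.

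In the payoff phase each of Gapdh, Pgk1, Pgam1, Eno1 and Pkm exceeded 100 TPM in every library. Gapdh, glyceraldehyde 3-phosphate dehydrogenase, had 296, 272 and 280 TPM. Phosphoglycerate kinase (Pgk1) had 135, 136 and 135 TPM, and phosphoglycerate mutase (Pgam1) 138, 128 and 136 TPM. Gapdh stood above both in every library, and the levels of Pgk1 and Pgam1 overlapped. Enolase was led by the ubiquitous Eno1 with 880, 842 and 895 TPM, rank 124 among detected protein-coding genes. The muscle-type Eno3 had 16.8, 19.1 and 13.6 TPM and the neuronal Eno2 3.31, 4.17 and 2.75 TPM. Eno1 held 97.8% ± 0.448 of the step, and its log2 ratios were 7.98 ± 0.34 to Eno2 and 5.73 ± 0.29 to Eno3.

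Pyruvate kinase RNA was assigned almost entirely to the transcript with the M2 exon. Pkm as a gene had 864, 818 and 827 TPM. The M2 exon was carried by 1 transcript, Pkm-201, with 818, 776 and 777 TPM, and the M1 exon by 1 transcript, Pkm-202, with 31.8, 34.4 and 37.1 TPM. M2 made up 96.3%, 95.8% and 95.5% of both in libraries 1, 2 and 3, and the log2 ratio of M2 to M1 was 4.52 ± 0.15. These transcripts rested on 37931, 38263 and 43245 expected counts for Pkm-201 and 1234, 1416 and 1725 for Pkm-202. The values are those of whole transcripts, of 2432 bases for Pkm-201 and 2041 for Pkm-202, which also differ outside the exon. Reads on the M1 and M2 exons were not counted separately.

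Lactate dehydrogenase converts pyruvate into lactate, and its A subunit gene was the most abundant of the 42. Ldha had 1262, 1232 and 1262 TPM and stood at rank 69 among detected protein-coding genes. Ldhb, whose subunit favours the reverse reaction, had 52.6, 44.3 and 56.1 TPM. Ldha held 96.1% ± 0.401 of the pair, at a log2 ratio of 4.62 ± 0.16. The monocarboxylate transporters that move lactate across the membrane were far lower. Slc16a1 (MCT1) had 14.6, 12.7 and 17.3 TPM, against 20.6, 17.0 and 20.3 TPM of Slc16a3 (MCT4), the form associated with lactate export. Slc16a3 was the higher within each library, although the ranges of the 2 genes overlapped across libraries, and the log2 ratio was -0.38 ± 0.13. That order rested on the length correction: Slc16a1-201 is 4426 bases long and Slc16a3-201 2272, and in expected counts without correction for length the ratio was 0.57. Without library 2 the ratio of -0.36 was within 2 SD.

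Pyruvate enters mitochondria through a carrier built of the subunits MPC1 and MPC2. Mpc1 had 125, 121 and 131 TPM and Mpc2 87.2, 107 and 110 TPM, a log2 ratio of 0.32 ± 0.17. Mpc1 was the higher in each library, but the sign of the ratio depended on the table. The smaller gene table, a separate count of the same libraries described below, gave -2.93. There Mpc1 had 65, 54 and 76 counts, 3.04% of its expected counts, whereas Mpc2 kept 35.0%. Protein-coding transcripts alone gave 1.88. Of the kinases that switch pyruvate dehydrogenase off, Pdk1 had 75.0, 70.6 and 77.5 TPM and Pdk3 40.6, 34.3 and 34.9 TPM. Pdk2 had 7.89, 6.27 and 8.81 TPM. Pdk4, a kinase known to be raised by fasting and fatty acids, had 0, 0.10 and 0.05 TPM from 0, 7 and 4 expected counts. In library 1, 3 counts would have given 0.107 TPM. Pdk1 held 62.7% ± 1.72 of the step and Pdk3 30.8% ± 2.06, with a log2 ratio of Pdk1 to Pdk3 of 1.02 ± 0.13. Pdp1, a phosphatase that switches the complex back on, had 8.24, 9.37 and 8.36 TPM.

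**Figure D2:**
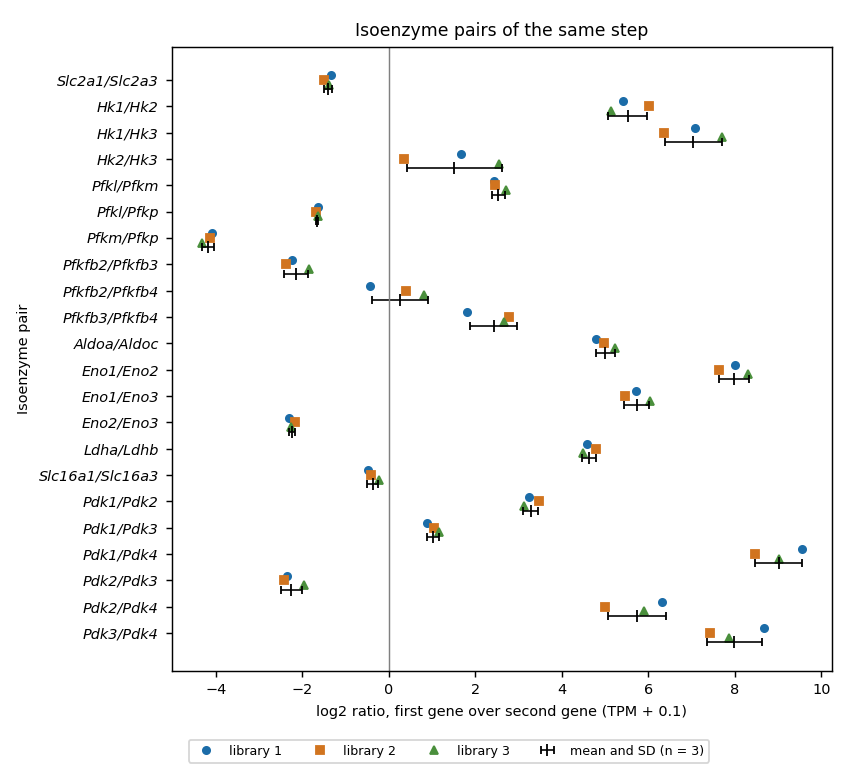
Log2 ratios of all 22 isoenzyme pairs within a step, first gene over second, with a pseudocount of 0.1 TPM; points are libraries and bars the mean and SD. In 20 pairs the 3 libraries lie on 1 side of 0 with a mean beyond 2 SD, and Hk2/Hk3 and Pfkfb2/Pfkfb4 are the exceptions.

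In all, 20 of 22 pairs differed by more than 2 SD. That SD is the spread of technical libraries, and the share passing among pairs of other genes was not computed. The count therefore cannot be read as particular to isoenzymes. The 3 pairs with Pdk4 and the 2 with Hk3 set a gene against one that was not detected, and the size of those ratios depends on the pseudocount. Pairs are not independent, since genes of 1 step occur in several of them. Fbp1, fructose 1,6-bisphosphatase of gluconeogenesis, runs the phosphofructokinase step in reverse. It had 0.16 TPM in library 1 from 2 expected counts and was at 0 in libraries 2 and 3, where 3 counts would have given 0.164 and 0.146 TPM.

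The oxidative branch of the pentose phosphate pathway makes NADPH in 3 steps, and all 3 genes were detected. G6pdx, glucose 6-phosphate dehydrogenase and the entry point, had 56.5, 49.9 and 62.6 TPM. Pgls, 6-phosphogluconolactonase, had 93.2, 94.5 and 100.35 TPM, and Pgd, 6-phosphogluconate dehydrogenase, 73.0, 66.8 and 65.9 TPM. Within each library Pgls was the highest of the 3 and G6pdx the lowest. The non-oxidative branch returns pentoses to glycolysis and was led by transaldolase and transketolase. Taldo1 had 332, 326 and 348 TPM and Tkt 266, 232 and 234 TPM. The enzymes that interconvert the pentose phosphates were lower: the epimerase gene Rpe had 53.0, 49.3 and 48.1 TPM, and Rpia, the isomerase that makes ribose 5-phosphate, had 5.87, 6.27 and 5.01 TPM, the lowest of the pathway's 7 genes.

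**Figure D3:**
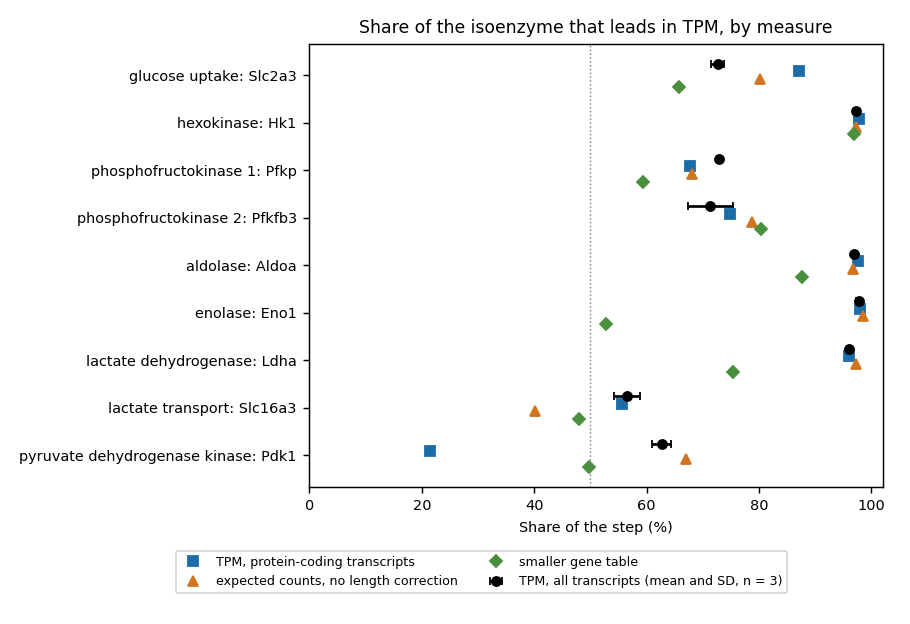
Share of a step held by the isoenzyme that leads it in TPM, under 4 measures; bars on the black points are the SD of 3 libraries and the dotted line marks 50%. Hk1 stays between 96.9% and 97.8%, whereas Eno1 is at 52.8% in the smaller gene table, Pdk1 at 21.5% on protein-coding transcripts and Slc16a3 at 40.2% without length correction.

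A gene's level adds up all its annotated transcripts, and not all of these can encode the enzyme. Among the 39 detected genes a median of 93.7% of TPM lay on protein-coding transcripts, against 88.0% over detected protein-coding genes. In 7 of the 39 the share was under 50%, and over detected protein-coding genes 14.4% were under 50%. The lowest was Pdk1, with 16.1% ± 0.628, or 11.6, 11.8 and 12.4 TPM on its 1 protein-coding transcript. Its leading transcript Pdk1-208, of the non-coding class called processed transcript, held 42.2% ± 0.606. On protein-coding transcripts Pdk3 led the kinases with 65.2%, Pdk1 followed with 21.5%, and the log2 ratio of Pdk1 to Pdk3 was -1.59. All 2972 bases of Pdk1-208, in 9 exons, lie in exons of the coding transcript Pdk1-201, which has 5185 bases in 11 exons, and Pdk1-208 covers 83.2% of its coding positions. Pdk1-206 (20.0% ± 2.67), Pdk1-204 (14.5% ± 0.872) and Pdk1-205 (5.23% ± 1.03) were also processed transcripts.

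Tkt was similar, with 17.5% ± 0.257 of TPM on protein-coding transcripts. Tkt-209, a processed transcript of 14 exons at chr14:30557609-30573624, held 66.5% ± 0.888, and Tkt-205, a decay target, 13.8% ± 0.342. Outside exons of the coding transcripts Tkt-209 has 85 of its 1962 bases, and it covers 94.3% of the coding positions of Tkt. The top coding transcript Tkt-207 had 40.5, 34.7 and 35.6 TPM. In both genes the shares varied little between libraries, which says how repeatable the assignment was and not whether it was right.

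Mpc2 had 33.9% ± 3.33 of TPM on its coding transcript and 65.2% ± 3.38 on Mpc2-203, a processed transcript of 493 bases with 3 exons. In expected counts the coding transcript led instead, with 50.4% against 44.3%, since a short transcript needs fewer reads for the same TPM. Gpi1 had 43.1% ± 0.686 on protein-coding transcripts, nearly all on Gpi1-201, and the decay targets Gpi1-207 (29.6% ± 1.51) and Gpi1-206 (19.4% ± 0.219) held most of the rest. Slc2a1, described above, had 37.9% ± 5.36. The remaining genes under 50%, Eno2 (43.4% ± 9.11) and Pfkfb2 (49.5% ± 18.1), had few reads and split them differently in each library. The leading transcripts Eno2-203, a retained intron, and Pfkfb2-206, a decay target, held 31.0% ± 4.52 and 34.3% ± 14.6. In expected counts the share on protein-coding transcripts was 70.1% in Gpi1 and 72.5% in Pfkfb2. It stayed under 50% in Pdk1 (33.0%), Tkt (18.5%), Slc2a1 (45.3%) and Eno2 (38.7%).

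**Figure D4:**
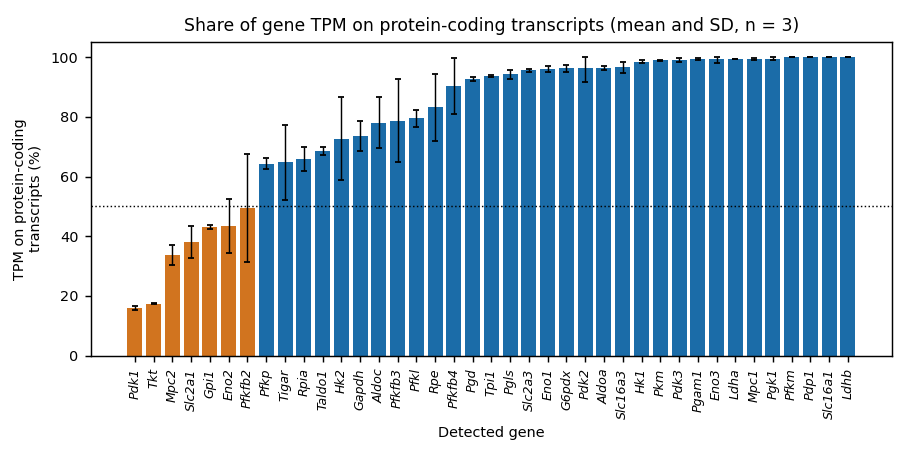
Share of each detected gene's TPM on transcripts annotated as protein-coding, as the mean of 3 libraries with the SD, lowest to highest; orange bars are below the dotted line at 50%. Pdk1 and Tkt are lowest at 16.1% and 17.5%, and Ldhb, Slc16a1, Pdp1 and Pfkm are at 100%.

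Of the 42 leading transcripts 15 held at least 90% of their gene's TPM and 13 held under 60%. These counts include undetected genes, with Pdk4 and Fbp1 at 100% from few reads. The same shares over all genes were not computed. Among the abundant enzymes with divided RNA, Aldoa was shared by 3 coding transcripts, Aldoa-201 (49.5% ± 3.77), Aldoa-203 (37.8% ± 4.23) and Aldoa-202 (8.82% ± 0.186). Hk1 was shared by Hk1-201 (54.1% ± 4.73) and Hk1-202 (38.4% ± 6.43), and Pfkp by Pfkp-201 (52.9% ± 1.79), the decay target Pfkp-203 (19.1% ± 1.77) and Pfkp-207 (11.2% ± 0.399). Mpc1 was divided over Mpc1-201 (45.8% ± 15.2), Mpc1-208 (27.5% ± 1.12) and Mpc1-203 (23.9% ± 14.2), whose order differed between libraries. Genes with fewer reads were divided unevenly from library to library. Pfkm-202 held 57.1% ± 12.4 of Pfkm, Pfkfb4-203 53.1% ± 32.2 of Pfkfb4, Eno3-201 45.8% ± 38.3 of Eno3 and Pdp1-206 39.9% ± 34.6 of Pdp1. In the undetected Hk3, Hk3-208 held 58.8% ± 26.2.

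Reads shared with other genes touched many of these enzymes. An expected count more than 0.005 from a whole number shows that reads were divided, and 25 of the 39 detected genes had one in at least 1 library, against 50.1% of detected protein-coding genes. In 17 it was so in every library, a count for which the share over all detected genes was not computed. Glycolytic enzymes have many processed pseudogenes, and the copies could be counted from the annotation as 50-base windows of the leading transcript that also occur in a gene at another locus. In Gapdh 90.4% of windows did so, with 222 genes of which 213 are pseudogenes. In Eno1 the share was 72.2% with 9 genes, in Pgk1 68.0% with 5, in Pgam1 41.5% with 4 and in Pkm 30.5% with 7. Ldha shared 19.1% of windows with 14 genes, whereas the leading transcripts of Hk1, Slc2a3, Pfkp, Tkt and Pdk1 shared no window. Only exact matches of the leading transcript were counted. Expected counts were still non-whole in 3 libraries for Hk1 and Pfkp and in 1 for Slc2a3.

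The 2 enolase copies that were detected had counts of their own. Eno1b had 14.0, 29.1 and 16.4 TPM and the pseudogene Gm4735 34.1, 18.6 and 31.4 TPM. Eno1b was highest and Gm4735 lowest in library 2, while Eno1 itself stayed within 842 to 895 TPM. With Eno1b and Eno4 in the denominator Eno1 held 95.6% of the step. The SD that the authors deposited for the assignment of reads was 0.315% to 0.383% of the count for Eno1, 1.05% to 1.14% for Pgk1, 0.640% to 0.866% for Mpc1 and 1.16% to 1.92% for Pfkfb2, the highest of the detected genes.

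**Figure D5:**
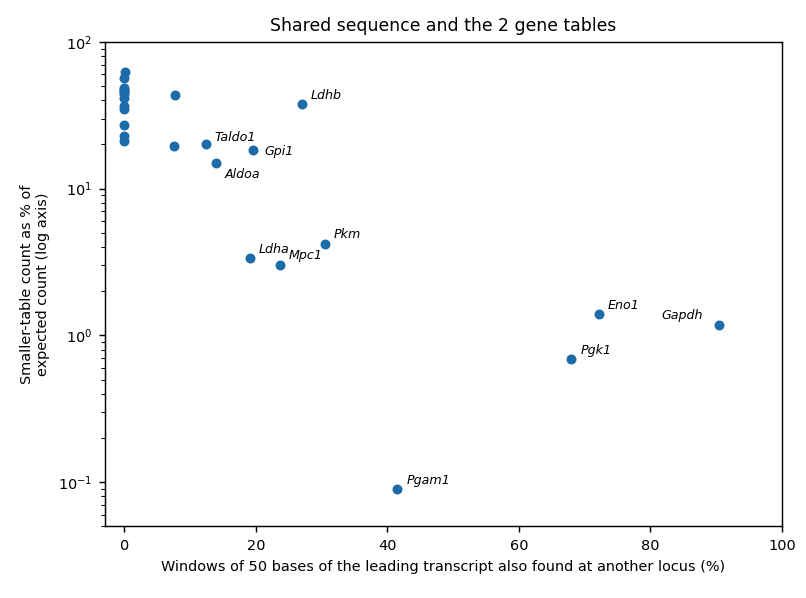
Count in the smaller gene table as a percentage of the expected count (log axis) against the percentage of 50-base windows found at another locus, for the 26 genes with a mean of at least 1000 expected counts. Pgam1, Pgk1, Gapdh and Eno1 are below 1.5% on the vertical axis and above 40% on the horizontal axis; genes are named where over 10% of windows are shared.

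The smaller gene table treated these genes very differently. Its counts had a median of 0.997 per base of transcript in 559 genes with at least 10000 expected counts. They were not in proportion to the level in all abundant genes. For example, Tkt had 1.83 counts per base and Ldha 0.859, against 4.998 and 25.69 expected counts per base. Over 6186 genes with a mean of at least 1000 expected counts, the smaller table held a median of 39.4% of them. Of 26 listed genes in that range, 7 lay under the 10th percentile of 10.9%. Pgam1 was the extreme, with 3, 5 and 5 counts, against 4614, 4530 and 5452 expected counts. Pgk1 had 34, 33 and 38 counts and Gapdh 73, 71 and 74, that is 0.0192 and 0.0674 counts per base. Eno1 with 502, 469 and 510 counts stood at 0.2502 per base, and Mpc1 with 65, 54 and 76 counts at 0.0765. Ldha and Pkm, at 0.859 and 0.731 per base, were closer to the median of 0.997 given above. Each of the 7 genes shared at least 19.1% of windows with another locus, but Gpi1 shared 19.6% and kept 18.4% of its counts, and Ldhb shared 27.0% and kept 37.5%. No source used here says what the smaller table does with shared reads, and the part of sharing in its low counts was not tested.

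These differences bore on the isoenzyme shares. In the smaller table Eno1 held 52.8% of the enolase counts and Eno3 40.95%, with a log2 ratio of 0.37, Ldha held 75.4% of lactate dehydrogenase, and Pdk1 49.7% of the kinases with Pdk3 at 41.6%. Hk1 held 96.9% there, so that hexokinase was the step least moved by the table.

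The spread between libraries was compared with counting noise by a chi-square test on rounded expected counts, adjusted over all genes tested by the Benjamini-Hochberg method. Of 40 listed genes with enough counts, 27 (67.5%) differed between libraries at an adjusted p of at most 0.05, against 65.8% of all 15945 genes tested, so the list stood near the background. The 13 that did not pass included Ldha, with 0.234% of variation beyond counting noise (adjusted p = 0.331), Aldoa with 0.385% (adjusted p = 0.378) and Gapdh with 0.630% (adjusted p = 0.352). The largest variation beyond counting noise was in Hk3 at 44.0% (adjusted p = 0.000439), Pfkfb3 at 29.5% (adjusted p = 2.69e-29), Pfkfb4 at 29.2% (adjusted p = 8.30e-05) and Hk2 at 25.8% (adjusted p = 1.51e-05). With the chi-square divided by the overdispersion of 8.62 shared by all genes, 1 listed gene passed, against 1.85% of all genes tested, and 11 did in the smaller table, against 33.4%. Library 2 was the lowest for 23 of the 39 detected genes and for 41.8% of detected protein-coding genes, and library 1 the highest for 19 and for 42.1%.

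Other genes of these pathways were read from a separate list of 56, of which 55 had a row, 28 were detected and 5 were at 0 in all libraries. Those below 1 TPM in every library included the gluconeogenic enzyme G6pc and the testis forms Pgk2, Gapdhs and Ldhc, examples picked after their values were seen. The pyruvate dehydrogenase subunits on that list were all detected, with Pdhb at 118 ± 0.513, Pdha1 at 111 ± 7.27, Dld at 63.1 ± 2.42, Dlat at 32.3 ± 2.61 and Pdhx at 18.4 ± 2.30 TPM. Bsg, which encodes the chaperone basigin that carries MCT1 and MCT4 to the membrane, had 231 ± 5.74 TPM, above both transporters in every library. The family members Pfkfb1 (3.88 ± 1.20) and Slc16a6 (20.96 ± 3.27) were not on the list of 42. Pfkfb1 stood above Pfkfb2. Slc16a6 had 20.2, 18.1 and 24.5 TPM, below Slc16a3 in library 1 and above it in libraries 2 and 3. With the other family members of a step added to its total, Pfkfb3 held 54.8%, Slc16a3 33.8% and Slc2a3 65.0% of their steps. Adpgk, which encodes an ADP-dependent sugar kinase, had 38.1 ± 0.562 TPM, between Hk1 and Hk2. The glucose 6-phosphatase gene G6pc3 had 22.3 ± 2.52, Pgm3 17.2 ± 2.54, the ribokinase gene Rbks 15.6 ± 1.92 and Pdpr, a regulator of the pyruvate dehydrogenase phosphatase, 13.4 ± 2.31 TPM. The transporter genes Slc2a8 (9.27 ± 1.37), Slc2a9 (6.03 ± 1.24) and Slc16a10 (1.08 ± 0.0603) were low. So were H6pd (9.56 ± 0.348), Shpk (5.08 ± 0.915), Tktl1 (4.15 ± 0.655), Pgam2 (3.57 ± 0.689), Pdp2 (3.52 ± 0.111) and Pcx (1.51 ± 0.282).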

How the data were processed

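Polyadenylated RNA was measured in 3 technical libraries of 1 biosample. Per the file headers and sample notes, the authors deposited expected counts and TPM per gene and transcript on mm10 with GENCODE M21, and, in a smaller gene table with GENCODE M4, whole-number counts. The aligner, the quantification program and strand use were not given in the sources used here. Overlapping antisense genes may therefore be mixed. Rows that match no annotated gene held 0.125% to 0.182% of counts and were left out of tests. The members and lists were chosen with earlier results of these data known. The rule for naming took all listed genes, detected genes of the other list, and transcripts of at least 5% where the leading one was not protein-coding or held under 60%. Lesser transcripts of genes with few reads are not printed. Pairs used log2(TPM + 0.1), so ratios of low genes are understated. Expected counts were rounded for the chi-square test (2 degrees of freedom, summed count of at least 30), which was tested on simulated data. Floors are the TPM of 3 counts and cover counting error only, since several reads may come from 1 molecule. R 4.3.3, edgeR 4.0.16, DESeq2 1.42.0, Python 3.11.15, pandas 2.3.3 and scipy 1.17.1 were used. Alternatives were other units, tables, thresholds, pseudocounts, normalizations and leaving out each library.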

Additional observations from a re-analysis of the deposited data

How the results depend on the processing

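Of the 9 steps, 8 kept their leading isoenzyme in expected counts without length correction, in the smaller gene table and on protein-coding transcripts, and all 9 without any 1 library. Slc16a3 fell behind Slc16a1 without length correction (share 40.2%, log2 ratio of Slc16a1 to Slc16a3 0.57) and in the smaller table (47.9%, 0.12). On protein-coding transcripts Pdk1 held 21.5% of its step and its log2 ratio to Pdk3 was -1.59. The uncalled ratio of Pfkfb2 to Pfkfb4 was -0.14 without length correction, -1.89 in the smaller table and -0.60 on protein-coding transcripts, and ranged from -0.02 to 0.61 when 1 library was left out. The cause was not tested. Between 20 and 21 of 22 pairs were called under every alternative. The 27 genes that differed between libraries became 1 with shared overdispersion (1.85% of all genes tested), 11 in the smaller table (33.4%) and 19 to 23 when 1 library was left out (41.1% to 48.6%). Detection stayed at 39 genes at 0.5 TPM and was 35 at 5 TPM. The share of all protein-coding genes at these thresholds was not computed. Low counts limit the values of Hk3, Pdk4, Fbp1, Pfkfb2 and Pfkfb4. No paired analysis was possible because the series holds a single group.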

Other observations

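Transcripts of known regulators of these genes were also present. Txnip, which encodes a protein that restrains glucose uptake, had 479 ± 23.2 TPM (SD, n = 3 libraries), and Hif1a, which encodes an activator of glycolytic genes, had 268 ± 15.9 TPM. Trp53, which activates Tigar in human cells, had 143 ± 6.68 TPM and Myc 93.8 ± 6.46 TPM. Each was detected in all 3 libraries.

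Several enzymes beside the main route were present at moderate levels. The phosphoglucomutase family genes Pgm1 and Pgm2 had 39.3 ± 2.95 and 28.4 ± 2.84 TPM. Pgp, a phosphatase that clears side products of glycolysis, had 38.4 ± 0.371 TPM. Bpgm, which makes the red cell metabolite 2,3-bisphosphoglycerate, had 21.6, 21.3 and 25.4 TPM, while the summed red cell globin genes had 515, 364 and 407 TPM in libraries 1, 2 and 3. Bpgm was highest in library 3 and the globin sum in library 1. The part of red cells in the Bpgm reads was not tested. The mitochondrial gluconeogenic enzyme gene Pck2 had 23.5 ± 2.17 TPM.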
